A study of Hevea brasiliensis with 21 samples.

Results

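The contigs described here are 300 of the 86941 contigs of a rubber tree (Hevea brasiliensis) reference transcriptome whose level in latex differed between month 36 and month 1 of tapping in clone PB217, both in control trees and in trees given ethephon. Of the 300, 181 were higher and 119 were lower at month 36. Latex is the cytoplasm of the laticifers, the rubber-producing cells of the bark, and it flows out when the bark is cut, or tapped. Tapping wounds the bark again and again over years, and ethephon, which releases the hormone ethylene in plant tissue, is painted on to prolong the flow of latex. In trees exploited heavily the cut can stop yielding latex, a disorder called tapping panel dryness (TPD).

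Polyadenylated RNA of latex was sequenced in 21 libraries, 3 for each of 7 groups. In wild-type PB217 trees the groups were month 36 with 12 ethephon applications a year and TPD, month 36 without ethephon and healthy, month 1 with ethephon and healthy, and month 1 without ethephon and healthy. In wild-type PB260 trees, all at month 36, they were severe TPD with ethephon, slight TPD with ethephon and controls without ethephon. The sample labels call both the slight TPD group and the controls of PB260 healthy, and the study describes both as slight TPD. The month and the yearly number of applications were read from the sample titles, for PB217 by the same code as for PB260, whose trees the study's text describes. The treatment field of every sample record reads "no treatment", and the study's text describes the PB260 trees only. The study's PB260 libraries were from separate trees, and the labels number 3 libraries in each PB217 group without saying more, so the spread between PB217 libraries may be partly technical.

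Tapping month cannot be told apart from harvest day in PB217. The month 1 libraries were harvested on 10 April and the month 36 libraries on 25 March (control) and 27 March (ethephon with TPD) of the same year, so different trees stood for the 2 durations. At month 36 of PB217 ethephon, TPD and harvest day changed together. In PB260 the ethephon groups were harvested on 27 March and the controls on 25 March. The clones also carry different tapping codes in their titles, and the reference contigs were assembled from PB260, so that PB217 reads were counted on the sequences of the other clone.

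Each library held 16102321 to 23126417 counted read pairs, 72.4 to 76.4% of the pairs parsed. Ethephon with TPD replicate 2 of PB217 stood apart, with a mean correlation of 0.887 with its own group, against 0.917 and 0.930 for the other libraries of that group, and 6.26% of its pairs in its 10 highest contigs, against 10.9 and 13.2%. Among 4 contigs with photosynthesis annotation, the summed level was 8.92 to 20.2 counts per 1000000 counted pairs (CPM) in PB217 libraries of month 36 with TPD, 1.30 to 1.61 in month 36 controls and 0.25 to 0.78 at month 1. In PB260 it was 4.77 to 11.1 CPM in severe TPD, 7.20 to 18.6 in slight TPD with ethephon and 0.83 to 1.45 in controls. The part of bark RNA in the results was not tested. HbTCTP1 (CL1Contig7138), a translationally controlled tumor protein of latex, was present in every library, at 1404 to 3560 CPM. The contig of HMG-CoA reductase 3 (CL5369Contig2) was far less even. In PB217 it was at 0.115 to 0.414 CPM in libraries without TPD and 0.644 to 4.65 in those with TPD. In PB260 it was at 73.2 to 130.2 CPM in severe TPD, 129.7 to 263.4 in slight TPD with ethephon and 0.608 to 4.83 in controls.

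The members were chosen by their CPM, the counted pairs of a contig divided by those of its library and multiplied by 1000000. A contig had to average at least 5 CPM over the 12 PB217 libraries, have a log2 ratio of month 36 over month 1 of at least 1 in size and of the same sign in control and in ethephon trees, and have all 6 month 36 libraries on the same side of all 6 month 1 libraries. Of the 16675 contigs at that level, 603 (3.62%) passed with higher and 291 (1.75%) with lower values at month 36, and the 300 with the highest mean were kept. The PB217 values of the members are therefore a description, and no test was made on them. A single step of the rule held for many more contigs. In ethephon trees 3683 contigs had a log2 of at least 1 and 719 of -1 or less, and in control trees the counts were 1251 and 841. Contigs past the limit in both kinds of tree but with opposite signs were few, 4 higher at month 36 in control trees and 20 higher in ethephon trees.

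**Figure D1:**
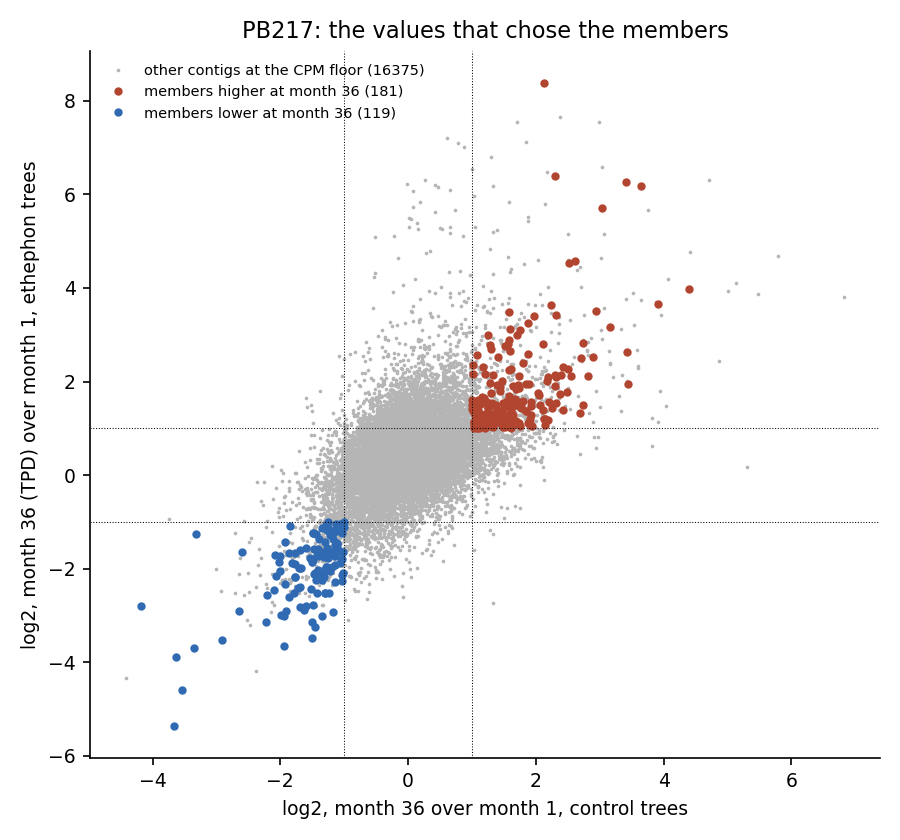
Each point is a contig with a mean of at least 5 CPM in PB217. The x axis gives log2 of month 36 over month 1 in control trees and the y axis the same ratio in ethephon trees, where the month 36 trees had TPD. Red points are the 181 members higher and blue points the 119 members lower at month 36, grey points are the other contigs, and dotted lines mark the limits of 1 and -1. The members by construction sit in the upper right and lower left corners, and a group of red points reaches 4 to 8 on the y axis at 2 to 4 on the x axis.

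The members near the limits show how gradual the choice was. The lowest means kept were 41.6, 41.2 and 41.0 CPM (CL1Contig18844, CL1618Contig2 and CL7920Contig1), and the highest means left out were 40.6, 40.5 and 39.9 CPM (CL1Contig17480, CL1Contig16293 and CL10629Contig2). CL36Contig16 passed with -1.0 and -1.01, whereas CL4063Contig1 had -0.997 and -1.31 and did not. CL1Contig16944 had -1.22 and -1.13 but overlapping libraries. In all, 24 contigs as abundant as the members passed both log2 limits with overlapping libraries.

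Among the 181 contigs higher at month 36 the median log2 was 1.5 in ethephon trees and 1.61 in control trees. Among the 119 lower ones it was -1.89 in ethephon trees and -1.42 in control trees. The change was larger in ethephon trees for 82 of the 181 and for 96 of the 119. Over all 16675 contigs the medians were 0.48 in ethephon trees and -0.04 in control trees, so the ethephon values of the whole transcriptome were displaced upwards. With trimmed mean of M-values (TMM) scaling, the medians over all contigs were -0.06 in ethephon trees and 0.01 in control trees. On that scale the 181 had medians of 0.97 in ethephon trees and 1.64 in control trees, the 119 had -2.40 in ethephon trees and -1.36 in control trees, and 77 of the 181 and 114 of the 119 still passed the rule.

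The members took up a changing part of the latex RNA. The 181 summed to 4.82 to 6.06% of counted pairs in the 6 month 36 libraries of PB217, against 1.56 to 1.98% in the 6 month 1 libraries. The 119 summed to 1.36 to 3.71% at month 36, against 9.35 to 12% at month 1. The lowest of these month 36 values, 1.36%, was that of ethephon with TPD replicate 2, and the other 5 were 2.11% or more. As for any share of a library, fewer transcripts of these contigs and more RNA of others cannot be told apart. In PB260, whose libraries the rule did not use, the 181 summed to 5.43 to 6.86% and the 119 to 0.81 to 1.67% over the 9 libraries.

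**Figure D2:**
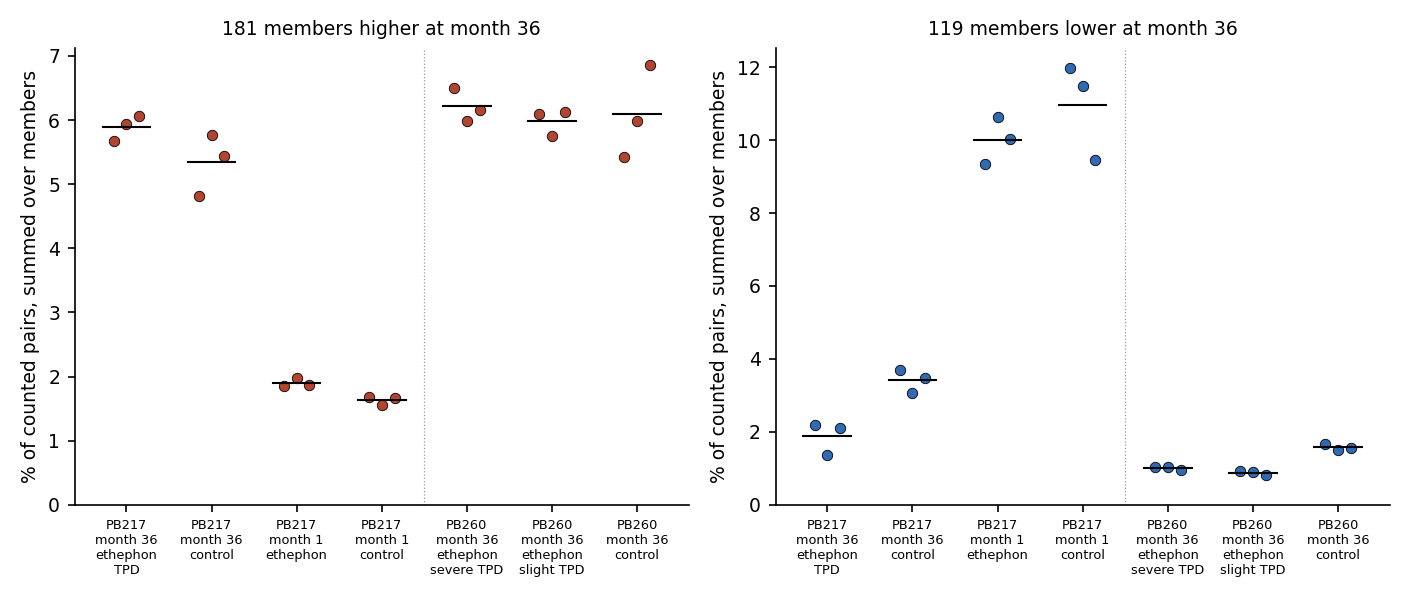
Percent of counted read pairs that fell on the members, for each library (points, 3 per group) with the group mean (line), in the 181 members higher (left) and the 119 members lower at month 36 (right). The month 36 libraries of PB217 and all PB260 libraries lie at 4.82% or more in the left panel, above the month 1 libraries at 1.98% or less. In the right panel they lie at 3.71% or less, below the month 1 libraries at 9.35% or more.

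CL1Contig9774, a contig of 791 bases for which no annotation is held, had the highest mean of all members and took up 0.336 to 1.41% of counted pairs at month 36, against 3.37 to 5.85% at month 1. It stood at 7790, 3358 and 6780 CPM in month 36 trees with ethephon and TPD and at 14055, 10844 and 12322 CPM in month 36 controls, against 39820, 53250 and 41922 CPM in month 1 trees with ethephon and 58496, 48328 and 33691 CPM in month 1 controls. The 2 months did not overlap, as the rule required, and the TPD libraries were below every month 36 control. The log2 of month 36 over month 1 was -2.91 in ethephon and -1.92 in control trees. In PB260 the same contig was at 559, 249.7 and 339.6 CPM in severe TPD, 141, 123 and 149 CPM in slight TPD with ethephon and 494, 358 and 344 CPM in controls, far below every PB217 library. Per length it averaged 34835 CPM per kilobase over the PB217 libraries, against 4552 for CL1Contig9909, the lower member with the next highest mean.

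Other abundant contigs lower at month 36 behaved alike. CL1Contig9909 (771 bases) was at 1190, 1758 and 1344 CPM in month 36 TPD trees and 1501, 1597 and 1783 CPM in month 36 controls, against 4401, 7406 and 5172 CPM in month 1 ethephon trees and 6737, 6044 and 3187 CPM in month 1 controls. CL1Contig9557 (1345 bases) was at 888, 475 and 697 CPM in month 36 TPD trees and 1169, 1082 and 1247 CPM in month 36 controls, against 4138, 3599 and 4140 CPM in month 1 ethephon trees and 3840, 4445 and 3789 CPM in month 1 controls. In both contigs the 2 months did not overlap, as the rule required. CL1Contig9557 was lower in each TPD library than in each month 36 control, and for CL1Contig9909 these groups overlapped.

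The largest decrease common to both kinds of tree was that of CL1Contig10506 (2033 bases, no annotation held), with a log2 of -5.36 in ethephon and -3.66 in control trees. Its values were 104, 14.0 and 55.3 CPM in month 36 TPD trees, with the lowest in replicate 2, and 320.0, 161 and 276 CPM in month 36 controls, against 2240, 2233 and 2689 CPM in month 1 ethephon trees and 2550, 4080 and 2945 CPM in month 1 controls. CL1Contig2528 (1066 bases) followed, at 5.0, 6.79 and 3.27 CPM in month 36 TPD trees and 10.0, 5.86 and 7.75 CPM in month 36 controls, against 77.4, 55.5 and 110.4 CPM in month 1 ethephon trees and 87.1, 107 and 117 CPM in month 1 controls. For CL1Contig2528 the 2 groups of month 36 overlapped, whereas every TPD library of CL1Contig10506 was below every month 36 control.

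Among the contigs higher at month 36, the most abundant was CL1Contig8340 (1759 bases, no annotation held). It was at 3177, 2588 and 4730 CPM in month 36 TPD trees and 5267, 5529 and 6069 CPM in month 36 controls, against 1364, 1673 and 1569 CPM in month 1 ethephon trees and 1450, 1086 and 1262 CPM in month 1 controls. Its increase was larger in control trees (log2 2.15) than in ethephon trees (1.19), since the TPD trees were below the month 36 controls. CL1Contig9768 (2926 bases) was at 2840 to 3893 CPM in the 6 month 36 libraries, against 1211 to 1764 CPM in the 6 month 1 libraries, and its TPD and control libraries overlapped. CL1Contig10485 (1595 bases) likewise was at 1838 to 2405 CPM at month 36, against 593 to 894 CPM at month 1.

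CL3035Contig1 (552 bases) and CL362Contig4 (3415 bases) had the largest increases common to both kinds of tree. CL3035Contig1 was at 149.9, 88.0 and 121 CPM in month 36 TPD trees and 58.3, 192 and 86.8 CPM in month 36 controls, against 4.98, 10.9 and 5.36 CPM in month 1 ethephon trees and 4.61, 8.30 and 1.70 CPM in month 1 controls, a log2 of 3.99 in ethephon trees and 4.39 in control trees. CL362Contig4 was at 123, 247 and 164 CPM in month 36 TPD trees and 91.3, 167 and 125 CPM in month 36 controls, against 12.5, 15.5 and 12.7 CPM in month 1 ethephon trees and 7.07, 11.9 and 4.96 CPM in month 1 controls. In both contigs the TPD and control trees of month 36 overlapped.

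A further set was raised at month 36 mainly in the trees with ethephon and TPD. The log2 in ethephon trees exceeded that in control trees by at least 1 in 27 of the 181, and the reverse held in 6. These counts use library totals, on which the medians over all 16675 contigs were 0.48 in ethephon trees and -0.04 in control trees. The same counts were not made over all contigs, so whether this is particular to the members was not tested. CL1Contig5676, whose best protein match is a putative O-methyltransferase of castor bean, an enzyme class that adds methyl groups to small molecules such as phenylpropanoids, had the widest gap. It was at 337, 907 and 218 CPM in month 36 TPD trees and 5.19, 10.6 and 6.83 CPM in month 36 controls, against 0.712, 1.54 and 0.630 CPM in month 1 ethephon trees and 0.180, 3.55 and 0.300 CPM in month 1 controls. The log2 was 8.39 in ethephon trees and 2.13 in control trees. Its annotation is held because the study listed it among the contigs most raised by ethephon in PB260, so its PB260 values are not independent of its being named.

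The contigs CL1048Contig4 and CL1048Contig2, the only contigs of their assembly cluster at the CPM floor, moved together. CL1048Contig4 (557 bases) was at 1314, 1555 and 625 CPM in month 36 TPD trees and 30.5, 102 and 89.9 CPM in month 36 controls, against 11, 27.4 and 8.45 CPM in month 1 ethephon trees and 1.80, 12.7 and 1.85 CPM in month 1 controls. Each step of that series was also seen in CL1048Contig2 (690 bases), with group means of 297 CPM in month 36 TPD trees and 18.8 in month 36 controls, against 3.35 in month 1 ethephon trees and 1.31 in month 1 controls. CL1Contig9109 and CL128Contig6, named for the size of their increases in PB260, had log2 values of 5.71 and 6.40 in ethephon trees, and 3.03 and 2.30 in control trees.

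Few members carry an annotation that gives a function. Annotation was held for 2148 of the 86941 contigs, 384 of them at the CPM floor, and for 7 members, of which 3 matched a protein with a named function. Besides the O-methyltransferase these were CL1049Contig1, which matches a putative ATP-dependent RNA helicase, an enzyme that unwinds RNA, and CL1042Contig9, which matches an alpha carbonic anhydrase, an enzyme that interconverts carbon dioxide and bicarbonate. CL1049Contig1 (5657 bases) was at 102, 106 and 109 CPM in month 36 TPD trees and 151, 117 and 156 CPM in month 36 controls, against 254, 185 and 279 CPM in month 1 ethephon trees and 266, 296 and 379 CPM in month 1 controls. CL1042Contig9 (1202 bases) was at 29.5, 13.0 and 39.6 CPM in month 36 TPD trees and 46.6, 35.5 and 44.6 CPM in month 36 controls, against 93.0, 83.3 and 113 CPM in month 1 ethephon trees and 85.2, 94.1 and 83.0 CPM in month 1 controls. For CL1049Contig1 the TPD libraries were below each month 36 control, and for CL1042Contig9 they overlapped them.

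CL1079Contig4 (1833 bases), with gene ontology terms for protein folding and the response to heat but no named match, was at 125, 193 and 107 CPM in month 36 TPD trees and 56.4, 96.0 and 56.8 CPM in month 36 controls, against 36.7, 27.1 and 29.6 CPM in month 1 ethephon trees and 31.7, 34.5 and 36.5 CPM in month 1 controls. All TPD libraries exceeded all month 36 controls.

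Over all 894 contigs that passed the rule, 140 contigs at the floor had a function and 16 of these passed, 14 higher and 2 lower at month 36. Thus 10% of contigs with a function passed as higher, against 3.62% of all contigs at the floor. The 14 lay mostly below the abundance of the 300 members. Of the 17 lists of functions, those with a contig past the rule were protein kinases and phosphatases (5 of 20 contigs at the floor, 25%, all higher), transcription factors (4 of 17, 23.5%, all higher), ethylene (1 of 1) and defence and wounding (1 of 1). The lists overlap, and the ethylene contig, CL8139Contig1, is also 1 of the 4 transcription factors. Among these 4, CL1076Contig7 and CL1076Contig10 are of the same assembly cluster. None of the contigs at the floor passed for isoprenoid and rubber synthesis (1), jasmonate (1), chaperones (5), reactive oxygen and antioxidants (2), membrane transport (3), ubiquitin and proteolysis (10), pentatricopeptide repeat proteins (6), cell wall (2), ribosome and translation (2) or sugar metabolism (2). Some of these were past both log2 limits but had overlapping libraries. The jasmonate contig CL1Contig21396 had a log2 of 6.81 in ethephon trees and 1.30 in control trees. CL9612Contig1 of the ubiquitin list had 6.54 and 1.01, and CL1080Contig4 of the transport list -1.27 and -1.18. No contig of the light and clock, photosynthesis or powdery mildew lists reached the floor. The median log2 of the 20 kinase and phosphatase contigs was 3.62 in ethephon trees and 0.01 in control trees, and that of the 17 transcription factors was 1.96 in ethephon trees and 0.60 in control trees. Part of the annotation held comes from the study's list of contigs most raised by ethephon in PB260, and the lists are weighted by it.

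Several contigs of these lists passed the rule at means below those of the 300 members, and they were low at month 1. CL8139Contig1, which matches the ethylene-responsive transcription factor ERF112, averaged 132 CPM in month 36 TPD trees and 3.02 in month 36 controls, against 0.452 in month 1 ethephon trees and 0.484 in month 1 controls. CL1Contig16711, which matches PTI6, an activator of pathogenesis-related genes in tomato, averaged 80.3 CPM in month 36 TPD trees and 4.70 in month 36 controls, against 0.339 in month 1 ethephon trees and 0.136 in month 1 controls. CL1Contig16293 and CL1Contig5861, both matching WNK (with no lysine) protein kinases, averaged 159 and 128 CPM in month 36 TPD trees and 2.97 and 1.93 in month 36 controls, and 0.290 CPM or less in either month 1 group. CL1076Contig7, which matches subunit B-10 of nuclear transcription factor Y, differed from these, at 20.4 CPM in month 36 TPD trees and 17.7 in month 36 controls, against 9.93 in month 1 ethephon trees and 8.46 in month 1 controls.

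The contigs carry a cluster number from the assembly, and contigs with the same number may be isoforms, alleles or copies of a gene. The largest cluster, CL1, held 147 of the 300 members (49.0%), 83 higher and 64 lower, and 39.4% of all contigs at the floor. Another 17 clusters held 2 to 5 members, 40 members in all, and in each of the 17 every member had the same direction. Read pairs that matched several contigs equally well had been removed, so closely related contigs may be undercounted, and members of a cluster are not independent. The following clusters were named after their values were seen. In CL61, 5 of the 6 contigs at the floor were members, all lower, with log2 values from -3.13 to -1.49 in ethephon trees and from -2.23 to -1.14 in control trees. CL61Contig5, the most abundant per length, averaged 169 CPM in month 36 TPD trees and 487 in month 36 controls, against 829.6 in month 1 ethephon trees and 1074 in month 1 controls. In CL280 2 of 3 contigs were members, also lower. CL336 had 3 of 3, CL169 3 of 5 and CL14 3 of 8, all higher. CL336Contig1 stood at 113.7 CPM in month 36 TPD trees and 87.4 in month 36 controls, against 15.6 in month 1 ethephon trees and 12.7 in month 1 controls. It stood at 585 in severe TPD, 393 in slight TPD with ethephon and 223 in controls of PB260.

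Ethephon and control trees of PB217 were next set side by side within each month. At month 1 they differed little. A level at least 2-fold higher in ethephon trees without overlap was found in 3 of the 181 members, against a background of 0.198% of contigs at the floor, and a level at least 2-fold lower in none, against 0.0420%. None of the 119 met either condition. At month 36, where ethephon trees also had TPD, 32 of the 181 (17.7%) were at least 2-fold higher than controls, against a background of 13.1% (9.43% of contigs as abundant as the members), and 1 was lower. Of the 119, 34 (28.6%) were at least 2-fold lower, against a background of 2.42% (4.76% of contigs as abundant), and 1 was higher. With TMM scaling these counts were 20 of the 181 higher (background 3.79%), 6 lower (background 7.60%) and 69 of the 119 lower (background 7.60%, and 13.5% of contigs as abundant). Without ethephon with TPD replicate 2, the library that stood apart, 26 of the 181 were higher and 25 of the 119 lower, and 291 of the 300 members passed the rule. The same libraries also chose the members, so these shares are a description only.

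The heat map of all members shows these features library by library.

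**Figure D3:**
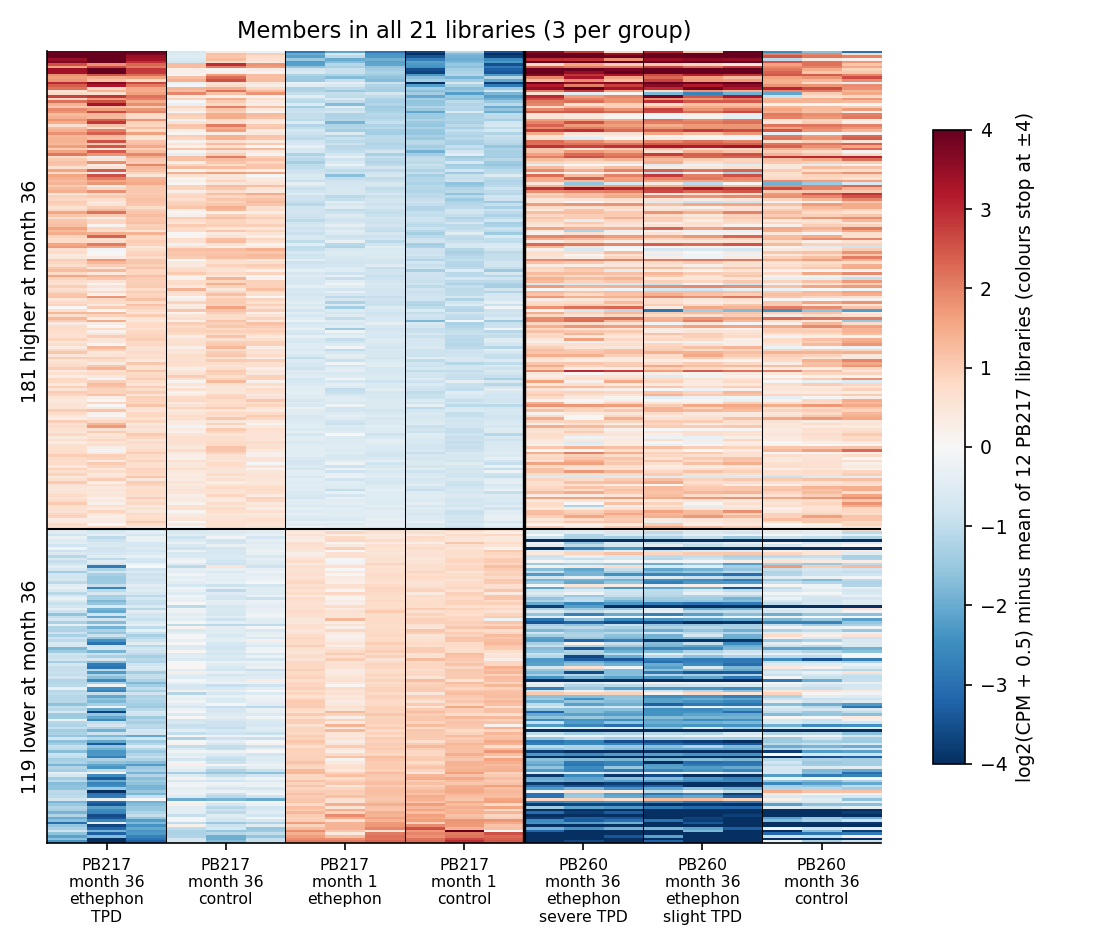
Rows are the 300 members, sorted by the sum of their log2 values of month 36 over month 1, and columns the 21 libraries in groups of 3. Colour is log2(CPM + 0.5) minus the mean of the 12 PB217 libraries, red for higher and blue for lower, stopping at 4 in either direction. The contrast between the 6 month 36 and the 6 month 1 libraries of PB217 chose the rows. The 9 PB260 libraries on the right have mostly the colours of month 36, and the top rows are strongest in the libraries with ethephon of either clone at month 36.

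In PB260 the members were mostly nearer to their month 36 than to their month 1 level. For each PB260 group the mean level on the log2 scale was compared with the midpoint of the month 36 groups and that of the month 1 groups of PB217. The members were chosen for a gap between these PB217 levels and the other contigs were not. The shares below are therefore a description only, and members and all contigs are not compared like for like. Of the 181, 174 were nearer to month 36 in severe TPD (96.1%), 159 in slight TPD with ethephon (87.8%) and 167 in controls (92.3%). Of the 119, 113 were nearer to month 36 in severe TPD (95.0%), 115 in slight TPD with ethephon (96.6%) and 108 in controls (90.8%). Beyond the month 36 midpoint, away from month 1, lay 113 of the 181 and 99 of the 119 in severe TPD. The counts were 105 and 103 in slight TPD with ethephon, and 102 and 62 in controls. Of all 16675 contigs at the floor, 9906 lay beyond it in severe TPD, 10070 in slight TPD with ethephon and 8688 in controls. The 181, and the 119 in controls, were close to contigs in general in this. The share of the 119 was larger in both groups with ethephon, but PB217 levels chose the members, so no conclusion is drawn from it. The counts beyond the midpoint were made on library totals only. Over all contigs at the floor the shares nearer to month 36 were 72.2% in severe TPD, 70.6% in slight TPD with ethephon and 68.3% in controls. With TMM scaling the 181 gave 88.4%, 70.7% and 86.2% in the same order of groups, and all contigs 68.5%, 65.7% and 65.4%, so that the 181 differed little from other contigs in slight TPD with ethephon on that scale. The 119 gave 93.3% or more in each group with TMM scaling.

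All 9 PB260 libraries lay on the month 36 side of all 6 month 1 libraries of PB217 for 157 of the 181 and for 105 of the 119. Over all contigs at the floor all 9 lay above all 6 month 1 libraries for 24.9% and below them for 8.53%. For 4 of the 181 and 1 of the 119, all 9 lay instead on the month 1 side of all 6 month 36 libraries. Over all contigs at the floor all 9 lay below all 6 month 36 libraries for 4.53% and above them for 3.95%. The PB217 libraries compared here also chose the members. Clone and tapping code cannot be told apart here, and no PB260 trees of month 1 were analysed here. The PB260 libraries were harvested on the same days of March as the month 36 libraries of PB217, and the month 1 libraries in April. Nearness of PB260 to month 36 therefore cannot be told apart from the shared harvest days.

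Some members lower at month 36 were lower still in PB260. In controls of month 36, PB260 was at least 4-fold below PB217 for 14 of the 119 (11.8%), against 2.32% of contigs at the floor, and for 2 of the 181 (1.10%). CL1Contig14745 was the only member under 1 CPM in all 9 PB260 libraries. Of the 119, 4 were too low in PB260 to be tested, CL1Contig14745, CL1Contig10747, CL1Contig11384 and CL1Contig21245, named after their values were seen. CL1Contig10747 (586 bases) was at 183, 146 and 217 CPM in month 36 TPD trees and 179, 154 and 213 CPM in month 36 controls of PB217, against 317, 471 and 457 CPM in month 1 ethephon trees and 427, 363 and 358 CPM in month 1 controls. In PB260 its highest value was 1.26 CPM. CL1Contig21245 (613 bases) was at 0.271, 15.9 and 21.8 CPM in severe TPD trees of PB260 and at 0.59 CPM or less in its other 6 libraries, against 58.4 to 91.9 CPM at month 36 and 114 to 199.9 CPM at month 1 of PB217. Whether sequence differences between the clones affected the counting of these contigs was not tested.

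The effects of ethephon and of TPD severity in PB260 were tested, since the rule used none of these libraries. Tests were made with edgeR's quasi-likelihood test, with Benjamini-Hochberg adjustment over all contigs tested, and 296 members entered them. Comparing slight TPD with ethephon with controls, 77 of the 115 tested members of the lower group fell (67.0%), 1 rose and 37 did not pass. Over all 30522 contigs 14.4% fell and 13.2% rose, and among contigs at least as abundant in PB217 as the lowest member 26.9% fell and 13.3% rose. Of the 181, 33 rose (18.2%), 44 fell (24.3%) and 104 did not pass. The median log2 fold change was -1.25 for the lower group, -0.21 for the 181 and 0.00 over all contigs.

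Of the 5 abundant or most changed contigs of the lower group described first above, 4 fell with ethephon in PB260 and CL1Contig9909 did not pass (log2 fold change -0.26, SE 0.20, adjusted p = 0.371). CL1Contig10506 fell by 3.49 on the log2 scale (SE 0.44, adjusted p = 0.000759), with 56.9, 25.0 and 17.2 CPM in slight TPD with ethephon, against 461, 216 and 289 CPM in controls. CL1Contig2528 fell by 3.17 (SE 0.58, adjusted p = 0.00424), CL1Contig9774 fell by 1.72 (SE 0.20, adjusted p = 0.000573), and CL1Contig9557 fell by 1.10 (SE 0.19, adjusted p = 0.00342). The RNA helicase match CL1049Contig1 fell by 1.15 (SE 0.19, adjusted p = 0.00244), at 104, 121 and 128 CPM in slight TPD with ethephon, against 215, 241 and 231 CPM in controls. CL3504Contig2 fell by 3.74 (SE 0.48, adjusted p = 0.000796) and is named because this was the largest decrease among members. All 5 members of CL61 fell, by 0.78 to 2.61, and so did both of CL280, CL280Contig2 with 66.2, 59.9 and 43.6 CPM in slight TPD with ethephon, against 304, 322 and 306 CPM in controls. CL1042Contig9, the carbonic anhydrase match, did not pass (log2 fold change -0.54, SE 0.21, adjusted p = 0.0850). The member of the lower group that rose was CL5157Contig2 (log2 fold change 1.42, SE 0.39, adjusted p = 0.0233), named after its values were seen. Its call was lost without control replicate 2 (1.44), slight TPD replicate 2 (1.36) or slight TPD replicate 3 (1.52).

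Among the 181, several contigs rose with ethephon in PB260. The O-methyltransferase match CL1Contig5676 rose by 5.77 on the log2 scale (SE 0.80, adjusted p = 0.00119), at 70.3, 18.6 and 152 CPM in slight TPD with ethephon, against 1.01, 2.25 and 0.608 CPM in controls. CL1048Contig4 rose by 3.14 (SE 0.35, adjusted p = 0.000435), at 1713, 1280 and 1396 CPM in slight TPD with ethephon, against 184, 172 and 76.0 CPM in controls. CL1048Contig2 rose by 3.36, CL1Contig9109 by 3.41, CL3841Contig1 by 3.22 and CL12035Contig1 by 3.05 (adjusted p from 0.000357 to 0.000878), of which CL1Contig9109 and CL3841Contig1 are named for the size of this increase and CL12035Contig1 was named after its values were seen. CL1079Contig4, of the protein folding terms, rose by 0.90 (SE 0.19, adjusted p = 0.00851). Of 5 contigs described above as raised in both kinds of PB217 tree, 2 fell and 3 did not pass. CL1Contig8340 fell by 1.24 (SE 0.24, adjusted p = 0.00545), CL3035Contig1 fell by 1.12 (SE 0.29, adjusted p = 0.0198), and CL362Contig4 did not pass (log2 fold change 0.59, SE 0.22, adjusted p = 0.0714). CL1Contig9768 (-0.39, SE 0.21, adjusted p = 0.199) and CL1Contig10485 (-0.53, SE 0.24, adjusted p = 0.139) did not pass either. The call of CL3035Contig1 was lost without control replicate 2 (log2 fold change -0.76) or slight TPD replicate 3 (-0.95).

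The month 36 difference between TPD and control trees of PB217 and the PB260 calls come from separate libraries. Of the 32 members of the 181 at least 2-fold higher in PB217, 24 rose in PB260 slight TPD with ethephon over controls (75% of the 32 and 72.7% of the 33 that rose), and none fell. Of the 34 members of the 119 at least 2-fold lower in PB217, 33 were tested and 30 fell in PB260 (90.9% of those tested and 39.0% of the 77 that fell), and none rose. Among all contigs as abundant as the members with such a PB217 difference, 68.8% of the higher ones rose and 92.6% of the lower ones fell, so the members were close to other contigs in this. For severe TPD over controls the overlaps were 23 of 32 (71.9%) and 27 of 33 (81.8%), with none in the other direction, against 59% and 65.1% of the contigs as abundant. TPD trees and controls differed without overlap but in opposite directions in PB217 and in severe TPD of PB260 for 3 of the 300 members, against 1.40% of contigs at the floor.

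**Figure D4:**
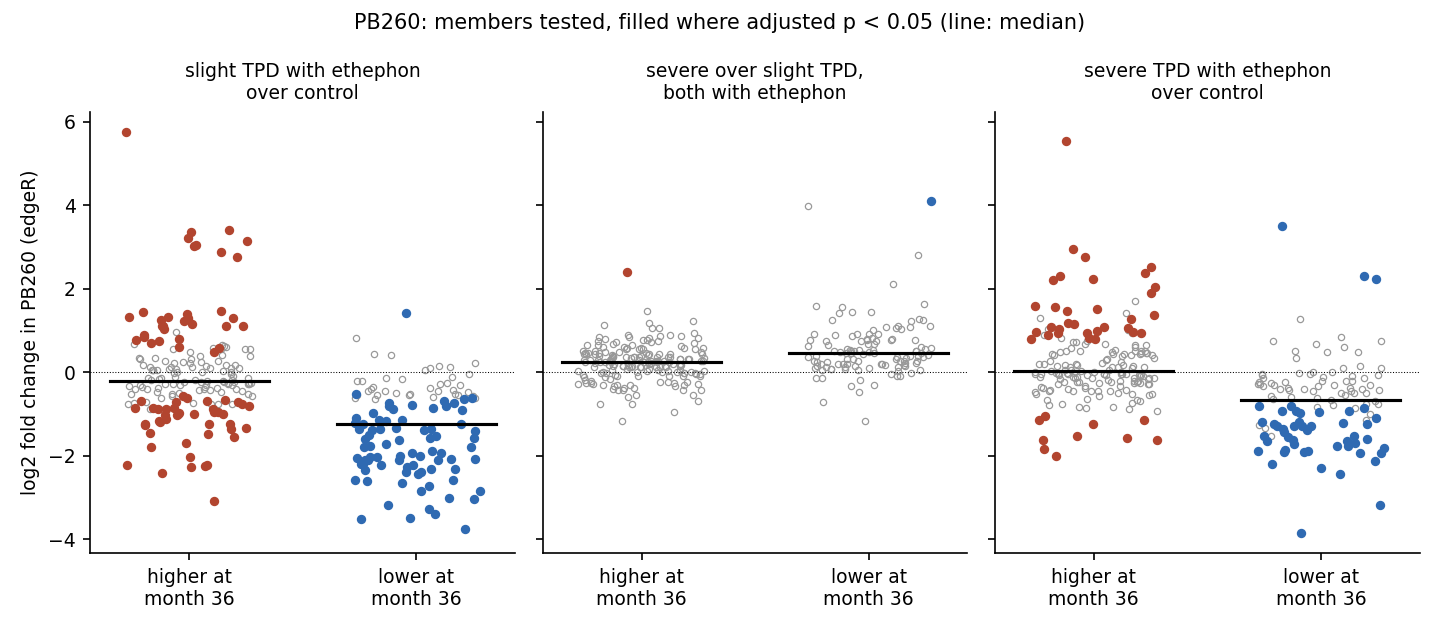
Log2 fold change of each tested member in 3 comparisons within PB260, for members higher (181) and lower (115) at month 36 in PB217. Filled points passed at an adjusted p under 0.05, open points did not, and lines are medians. In the left panel the filled blue points lie below 0 with 1 exception, and the red ones lie on both sides. In the middle panel 2 points are filled, both above 0.

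Severe TPD with ethephon was compared with controls in the same way. Of the 115 tested members of the lower group, 46 fell (40.0%) and 3 rose, and of the 181, 32 rose (17.7%) and 10 fell (5.52%). Over all 29900 contigs 6.60% rose and 4.91% fell, and among contigs as abundant as the members 10.5% rose and 8.97% fell. CL1Contig5676 rose by 5.54 (SE 0.74, adjusted p = 0.00316) and CL1048Contig4 rose by 2.22 (SE 0.36, adjusted p = 0.00637). CL1Contig2528 fell by 3.85 (SE 0.45, adjusted p = 0.00199), at 0.902, 1.01 and 1.80 CPM in severe TPD, against 12.9, 12 and 30.3 CPM in controls. CL1Contig10506 fell by 3.19 (SE 0.32, adjusted p = 0.00138). CL1Contig9774 did not pass (log2 fold change -0.05, SE 0.29, adjusted p = 0.930). The 3 members of the lower group that rose were CL19349Contig1, CL1Contig19300 and CL1514Contig4, named after their values were seen, all of which were under 6 CPM in every control library of PB260. CL19349Contig1 was at 29.1, 88.0 and 13.8 CPM in severe TPD, against 5.57, 2.63 and 3.70 CPM in controls (log2 fold change 3.49, SE 0.63, adjusted p = 0.0103), and its call was lost without control replicate 2 (3.26) or 3 (3.41), as was that of CL1514Contig4 (2.15 and 2.16). The counts of members called depended on which libraries were used. With all libraries 35 members rose and 56 fell, without control replicate 2 they were 14 and 33, without control replicate 3 15 and 37, without severe TPD replicate 1 23 and 44, and without severe TPD replicate 3 20 and 32. They changed less without control replicate 1 (30 and 54) or severe TPD replicate 2 (30 and 57). The calls over all contigs moved too. With all libraries 1972 rose and 1467 fell, against 560 and 445 without control replicate 2 and 629 and 441 without control replicate 3. The calls were 1128 and 886 without severe TPD replicate 1, and 778 and 581 without severe TPD replicate 3. They were 1327 and 1120 without control replicate 1, and 1515 and 1612 without severe TPD replicate 2.

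Severe and slight TPD, both with ethephon, differed in few members. CL1Contig4884 (1271 bases), of the 181, rose by 2.41 (SE 0.30, adjusted p = 0.0359), at 132, 62.8 and 88.4 CPM in severe TPD, against 24.5, 13.4 and 22.5 CPM in slight TPD. CL9256Contig1 (716 bases), of the lower group, rose by 4.10 (SE 0.56, adjusted p = 0.0431), at 13.3, 7.88 and 11 CPM in severe TPD, against 0.911, 1.12 and 0.136 CPM in slight TPD. No member fell. In each contig the groups did not overlap. Over all 30061 contigs 0.133% rose and 0.00% fell, and among contigs as abundant as the members 0.407% rose. At an unadjusted p under 0.05, 88 of the 296 members tested were higher and 8 lower in severe TPD. Over all 30061 contigs 1971 were higher and 888 lower at that limit. DESeq2 called 39 members higher and 2 lower, against 564 and 78 over all contigs. The exact test of edgeR called 33 and 2 members, against 493 and 74 over all contigs. The calls of CL1Contig4884 and CL9256Contig1 were both lost in the quasi-likelihood test on leaving out any slight TPD library, severe TPD replicate 1 or severe TPD replicate 3. That of CL1Contig4884 was also lost with all 9 libraries in 1 fit. Which of these groups had severe TPD was taken from the sample labels alone, and no measured contig checks it, so the direction of these differences holds only if those labels are right. The comparisons of slight TPD and of severe TPD with controls rest on the same labels. The medians of the log2 fold change were 0.46 for the lower group and 0.25 for the 181, against -0.03 over all contigs.

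Relative to controls of PB260, CL1Contig4884 fell by 3.09 (SE 0.72, adjusted p = 0.0125) in slight TPD with ethephon, and CL9256Contig1 fell by 3.39 (SE 0.52, adjusted p = 0.00184). In severe TPD over controls neither passed (log2 fold changes -0.63 and 0.76, adjusted p = 0.566 and 0.0982). CL1Contig4884 varied widely between the PB260 controls, at 19.9, 175 and 252 CPM. In PB217 it was at 145, 137 and 269 CPM in month 36 TPD trees and 333, 196 and 301 CPM in month 36 controls, against 43.7, 44.2 and 52.9 CPM in month 1 ethephon trees and 32.4, 18.3 and 24.6 CPM in month 1 controls.

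**Figure D5:**
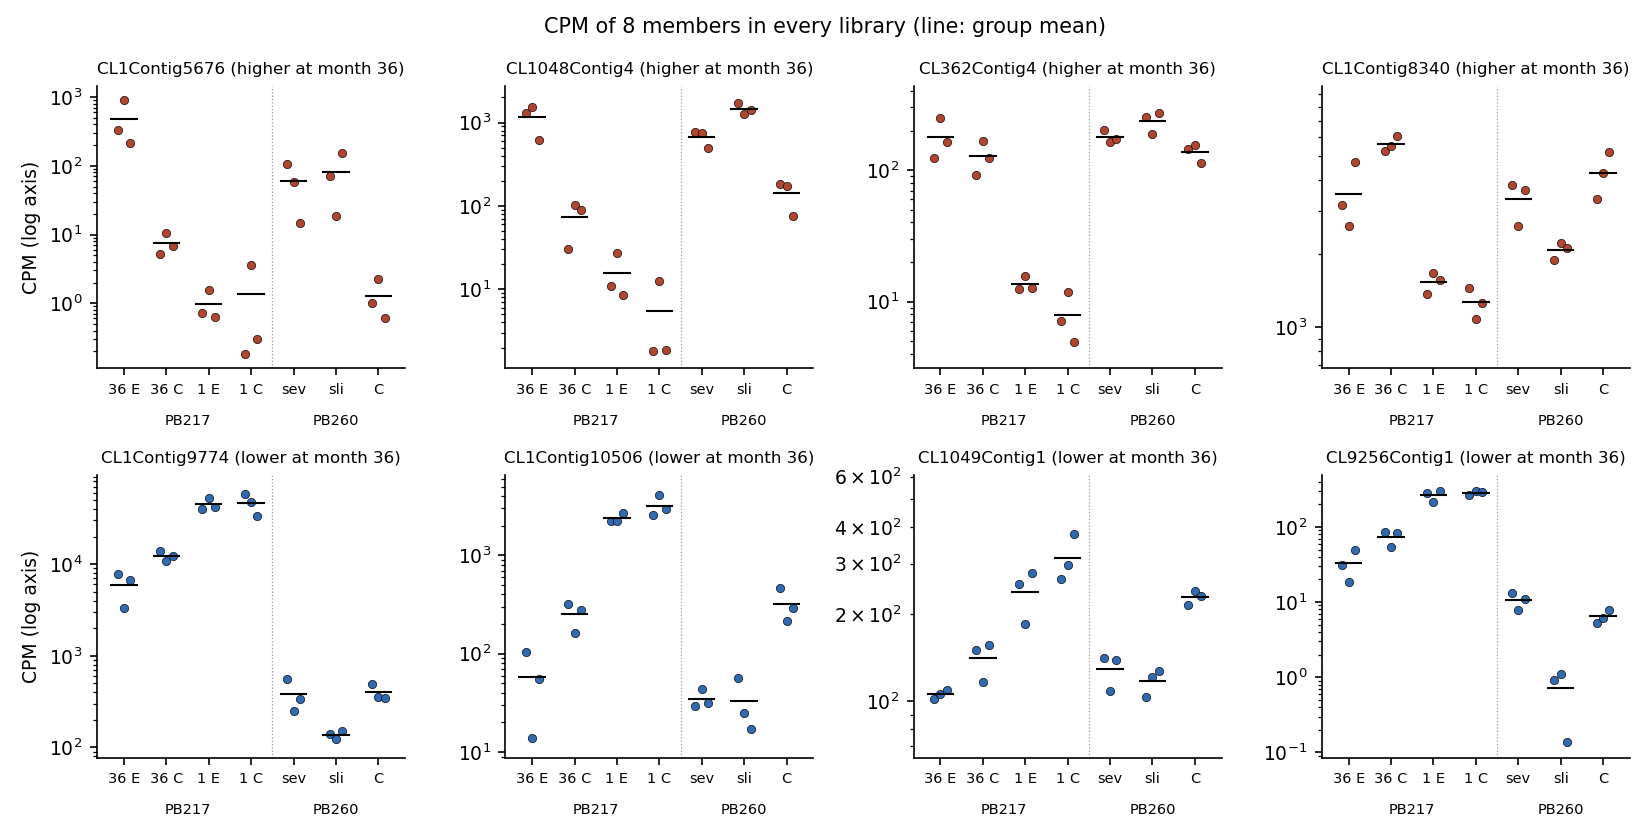
CPM on a log axis in every library (points, 3 per group) with the group mean (line) for 8 members. On the x axis 36 E and 36 C are the month 36 trees of PB217 with ethephon and TPD and without ethephon, 1 E and 1 C the month 1 trees with and without ethephon, and sev, sli and C the PB260 trees with severe TPD, with slight TPD and ethephon, and controls. CL1Contig5676 and CL1048Contig4 are high in the month 36 groups with ethephon of both clones, CL362Contig4 is high in all month 36 groups, and CL1Contig9774 is lower in every PB260 library (559 CPM or less) than in any PB217 library (3358 CPM or more).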

How the data were processed

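Latex RNA of 12 PB217 and 9 PB260 libraries had been prepared with a stranded poly(A) kit and sequenced in pairs. Per the study, reads were trimmed, ribosomal reads removed and pairs mapped with Bowtie2 on the PB260 reference transcriptome. The labels also name TopHat2, and versions are not given in the sources used here. The deposited values are counts per contig of read pairs with both mates on that contig, and the authors had removed reads that matched several contigs equally well. Nothing was left out of the 86941 contigs.

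Here CPM was computed from the deposited counts and their library totals. Log2 ratios used group means plus 0.5. The members and lists were chosen with earlier results of these data known. PB260 groups were compared with edgeR 4.0.16 (R 4.3.3; glmQLFit, TMM, CPM of at least 1 in at least 3 of 6 libraries, Benjamini-Hochberg, threshold 0.05), fold changes with a prior count of 0.125. Each SE is the size of the log2 fold change divided by the square root of the quasi-likelihood F statistic. It was not given by the fit itself. DESeq2 1.42.0 and edgeR's exact test, which the study used, served as alternatives, with other scalings, filters, limits, 1 fit over 9 libraries, a replicate block and each library left out. On simulated counts, 92.6% of contigs changed by a log2 of 2 and 32.3% of those changed by 1 were recovered for slight TPD with ethephon over controls, 76.8% and 17.9% for severe over slight TPD, and 77.7% and 9.57% for severe TPD over controls. Members were named by a function, by the 5 highest means, the 5 largest changes common to both kinds of tree and the 5 largest called PB260 changes in each direction, and near the limits of the rule. Functions came from the part of the study's annotation held here. No contig sequence was used, and no name in the RefSeq table matched a contig.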

Additional observations from a re-analysis of the deposited data

Results flagged for a closer look

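CL9256Contig1, lower at month 36 in PB217, was set apart because its libraries moved in opposite directions in the clones when month 36 trees with ethephon and TPD were compared with controls. In PB217 the log2 ratio was -1.17, at 30.9, 18.2 and 48.8 CPM in TPD trees, against 85.3, 54.6 and 82.2 CPM in controls. In PB260 the log2 ratio of severe TPD over controls was 0.69, at 13.3, 7.88 and 11 CPM in severe TPD, against 5.22, 6.22 and 7.85 CPM in controls. CL1514Contig4, also lower at month 36 in PB217, moved in the same way, with a log2 ratio of -0.70 in PB217 and of 1.92 for severe TPD over controls in PB260. The difference between the clones was not tested for either. In edgeR's quasi-likelihood test of severe TPD over controls in PB260, CL9256Contig1 did not pass (adjusted p = 0.0982). CL1514Contig4 passed that test (adjusted p = 0.0116), but its call was lost without control replicate 2 or 3. The same opposition without overlap held for 3 of the 300 members, against 1.40% of contigs at the CPM floor. It was thus no more frequent among members than among contigs in general. In none of the 3 was the ratio at least 2-fold in both clones.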

How the results depend on the processing

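For slight TPD with ethephon over controls, the numbers of members called, called higher and called lower stayed within 1.5 times under every alternative run. The part of the 181 that fell moved further. It was 44 with all libraries, 28 without control replicate 2, and 29 without slight TPD replicate 1 or without slight TPD replicate 3. Over all contigs 4405 fell with all libraries and 2899 without control replicate 2. Without slight TPD replicate 1 it was 3436, and without slight TPD replicate 3 it was 2757. For severe over slight TPD, 2 members were called, both higher. With no count filter 39 were called (37 higher, 2 lower), with DESeq2's Wald test 41 (39 and 2), with edgeR's exact test 35 (33 and 2), and with all 9 libraries in 1 fit or with the replicate block 6, all higher. Over all contigs 40 were called higher and 0 lower in the main run, 651 and 101 with no count filter, and 564 and 78 with DESeq2. They were 493 and 74 with the exact test, 91 and 5 in 1 fit, and 82 and 6 with the replicate block. Leaving out single libraries gave 0 to 9 members called, all higher. Over all contigs it gave 0 to 74 higher and 0 to 2 lower. For severe TPD over controls, leaving out single libraries gave 47 to 87 members called, 14 to 30 higher and 32 to 57 lower, against 91, 35 and 56. Over all contigs the same runs called 560 to 1515 higher and 441 to 1612 lower, against 1972 and 1467. Replicate numbers did not pair the samples, and the replicate block moved no other count of members by over 1.5 times.

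The rule passed 894 contigs, 603 higher and 291 lower. With TMM scaling it passed 295 higher and 457 lower and 191 of the 300 members. With a floor of 1 CPM it passed 1368 (958 higher), with a floor of 20 CPM 455 (290 higher, 165 lower), with a log2 limit of 1.5 it passed 330 (219 higher, 111 lower) and 107 of the 300 members, and with a limit of 0.5 2435 (1782 higher, 653 lower). Without single libraries 271 to 294 of the 300 passed, none in the other direction. Within months of PB217, TMM scaling gave 5 of the 181 higher at month 1, and at month 36 20 of the 181 higher, 6 of the 181 lower and 69 of the 119 lower. Leaving out single libraries gave 1 to 11 of the 181 higher and 0 to 1 of the 119 lower at month 1, and at month 36 0 to 2 of the 181 lower and 1 to 2 of the 119 higher. Of the PB260 fold changes of named members under alternatives, 562 stayed on their side of the threshold, 38 missed it and 0 reversed. The causes were not tested. With 3 libraries a group, changes of a log2 of 1 were mostly missed on simulated counts.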
